A study of Mus musculus with 4 samples.

Results

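Matrix metalloproteinases (MMPs) and the tissue inhibitors of metalloproteinases (TIMPs) were followed through osteoclast formation in culture, with 10 named genes looked up among 18193 genes on the arrays. The 10 genes were Mmp2, Mmp8, Mmp9, Mmp12, Mmp13, Mmp14, Mmp19, Timp1, Timp2 and Timp3, taken from a list of symbols and found through the platform's probe annotation. They had 23 probe sets that carry 1 symbol each, and 0 further probe sets shared with another symbol. All 10 symbols matched RefSeq by Entrez identifier. The cells came from marrow of C57BL/6 mice 8 to 10 weeks old, and no genetic change is given in the labels. Bone marrow macrophages (BMM) had been grown for 3 days in M-CSF at 100 ng/ml, the survival factor of macrophages. Pre-osteoclasts (pOC) were mononuclear cells, positive for the osteoclast stain TRAP, taken after 2 days in M-CSF and RANKL at 100 ng/ml each, RANKL being the cytokine that directs macrophages to the osteoclast fate. Mature osteoclasts had 2 more days in both cytokines, either on dentin slices, which they resorb (mOCd), or on a plastic plate (mOCp). Each of the 4 groups was 1 array, so there are no replicates and no test between groups, and the labels do not say how many animals supplied a culture.

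MMPs are zinc-dependent proteases that cut collagens and other matrix proteins, and most are made as inactive precursors. TIMPs bind their active sites. In bone, MMP9 and MMP14 are the family members best known from osteoclasts, where they work beside cathepsin K, the main collagen-degrading enzyme of the resorption pit. MMP14 sits in the membrane, and TIMP2 has a double role there, since it inhibits MMP14 and also forms the complex through which MMP14 activates the MMP2 precursor.

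Values are linear array intensities that the authors scaled to a common trimmed mean. On each array the 50th percentile served as a floor, at 12.7 in BMM, 14.5 in pOC, 15.8 in mOCd and 14.8 in mOCp, and values under it were set to it before ratios were formed. To count as higher or lower, a gene needed a ratio of at least 2-fold and a brighter value no dimmer than that array's 75th percentile, which lay between 77.8 and 87.0. Of the 10 genes, 6 reached that percentile on at least 1 array, 9 exceeded the floor on at least 1, and Mmp2 was under it on all 4. The measure of error at hand is the disagreement between probe sets of 1 gene, which over all genes was 0.391 on the log2 scale for pOC over BMM, 0.397 for mOCp over pOC, 0.504 for mOCd over pOC and 0.427 for mOCd over mOCp. It leaves out the spread between cultures and arrays. Of 9 osteoclast markers, 8 were at least 2-fold higher in pOC than in BMM and 4 were higher in mOCp than in pOC, with 3 higher in mOCd than in pOC. Of 11 macrophage markers, 9 were lower in pOC than in BMM, and the sum over all 11 was 11137.7 in pOC and 30398.6 in BMM. Another scaling used 6 spike-in controls for hybridisation, which do not measure the mRNA content of the cells. On the log2 scale it shifted the median gene by 0.25 for pOC over BMM and by −0.45 for mOCp over pOC. The shifts were −0.43 for mOCd over pOC and 0.02 for mOCd over mOCp. Small ratios are therefore relative to the authors' scaling.

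**Figure D1:**
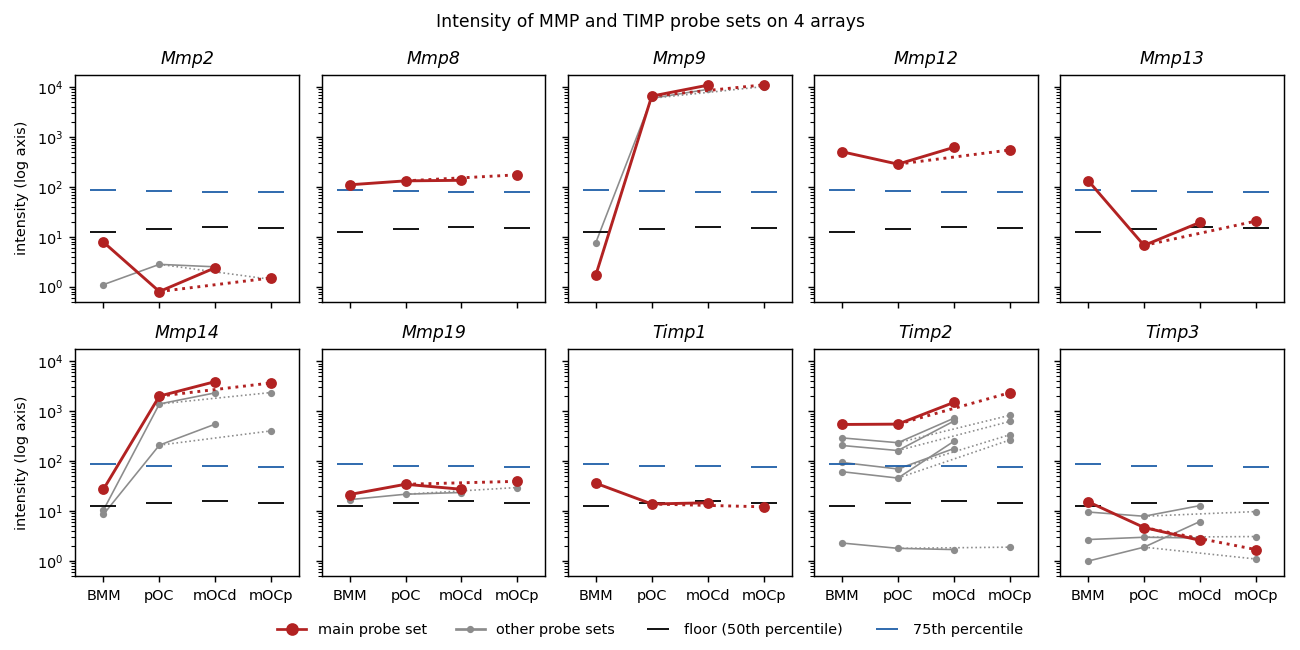
Intensity (log axis) of every probe set of the 10 genes on the 4 arrays, with the main probe set in red, others in grey, and short marks for each array's 50th (black) and 75th (blue) percentile; solid lines run from BMM through pOC to mOCd and dotted lines from pOC to mOCp. Mmp9 and Mmp14 lie far above both marks from pOC on, Timp2 is brighter in the 2 mature cultures, Mmp13 exceeds the 75th percentile in BMM, and Mmp2 lies under the floor on all 4 arrays.

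Mmp9 and Mmp14 were far brighter in pOC than in BMM, and Mmp13 was lower. Mmp9 encodes gelatinase B, a secreted protease that cuts denatured collagen. Its main probe set read 6526.8 in pOC against 1.7 in BMM, where it lay under the floor, which makes it at least 514-fold higher (log2 ratio of at least 9.01). That bound rests on the floor, and was 8.08 with the floor at the 60th percentile and 10.91 at the 25th. The second Mmp9 probe set read 5908.5 in pOC and 7.6 in BMM, a log2 ratio of at least 8.86. Both probe sets were thus dark in macrophages and bright in pre-osteoclasts. Among the 7260 genes eligible in this comparison, the floored ratio of Mmp9 ranked 1 from the top.

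Mmp14, the membrane-bound protease, read 2007.7 in pOC and 27.4 in BMM, 73.3-fold higher, with a rank of 14. Its other probe sets had log2 ratios of at least 6.78 and at least 4.04, against 6.2 for the main one, so they shared the direction, and a bound gives no full size. Mmp13, a collagenase that in bone is mostly known from cells of the osteoblast and cartilage lineages, read 6.7 in pOC and 133.2 in BMM. The pOC value was under the floor, so Mmp13 was at least 9.19-fold lower (log2 ratio −3.2). With the floor at the 60th percentile this was −2.47, and at the 25th −4.31. It has 1 probe set, and no second reading was available. The part of the lower macrophage markers in this reading was not tested.

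The remaining genes did not meet the criterion in this comparison. Mmp12, macrophage elastase, read 284.0 in pOC and 503.0 in BMM (log2 ratio −0.82). It passed 2-fold (−1.02) after scaling to the median of all probe sets, which lies at the floor, and not (−0.78) with the median of the 17498 probe sets above the floor on all arrays. Timp2 read 551.5 in pOC and 542.9 in BMM, a log2 ratio of 0.02 on the main probe set and −0.44 to −0.32 on the 4 others above the floor. The main probe set's ratio turned to −0.17 after median scaling. Timp1, a secreted inhibitor that also binds the MMP9 precursor, was above the floor only in BMM, with 13.9 in pOC and 36.2 in BMM, and neither value reached the 75th percentile. In all, 2 of the 10 genes passed the criterion upward and 1 downward. Only 6 of the 10 were eligible, with a value reaching the 75th percentile on either array. Of all eligible genes, 11.1% passed upward and 13.2% downward. The median log2 ratio was 0.01 over the 10 genes and 0.0 over all 18193, where genes at the floor on both arrays (1 of the 10) entered as 0. Over eligible genes it was 0.04. Counting depended on the scaling for all genes, with 809 higher and 956 lower in the authors' scaling, 1198 and 703 with the spike-ins, and 589 and 1216 after median scaling. RANKL and 2 further days in culture cannot be told apart here, because no array holds cells kept with M-CSF alone for that time. In cultures measured as a whole, fewer cells of a type and less RNA per cell cannot be told apart either.

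**Figure D2:**
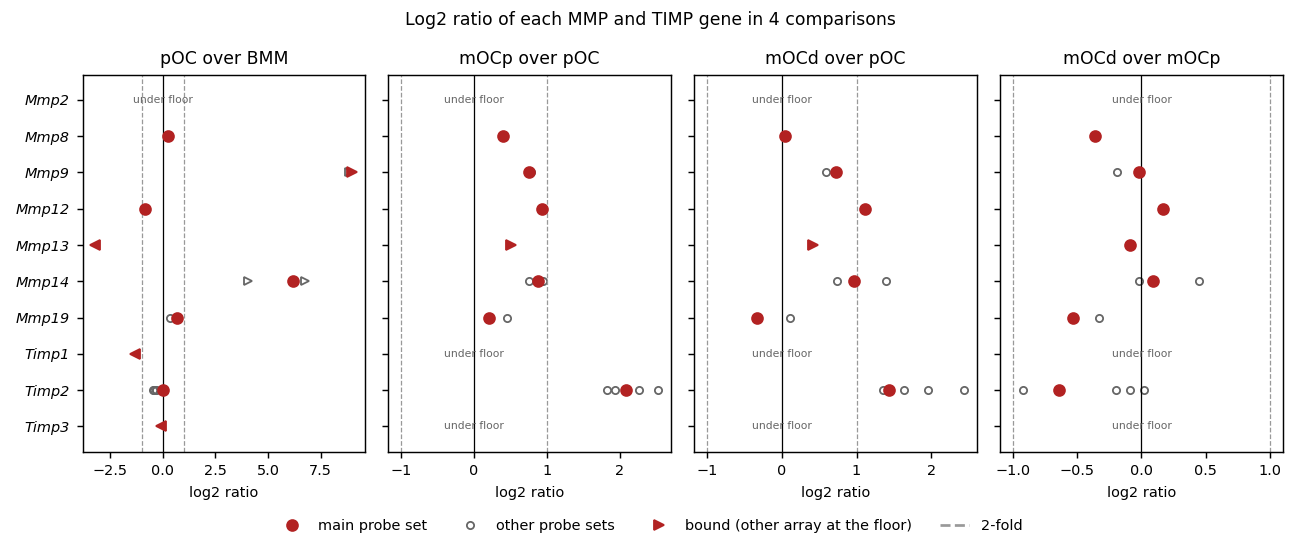
Log2 ratio of each gene in the 4 comparisons, first group over second, with filled points for the main probe set, open points for other probe sets, triangles for bounds where 1 array was at the floor, and dashed lines at 2-fold. Horizontal scales differ between panels. Mmp9 and Mmp14 lie far right for pOC over BMM, Timp2 stands right of the dashed line on all 5 measured probe sets in both comparisons with pOC, and no main probe set passes 2-fold for mOCd over mOCp.

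Timp2 was the inhibitor gene that was higher in both mature cultures. Its main probe set read 1500.9 in mOCd and 2346.3 in mOCp, against 551.5 in pOC. That was 2.72-fold higher on dentin and 4.25-fold higher on plastic. The 4 other Timp2 probe sets above the floor had log2 ratios from 1.36 to 2.44 for mOCd over pOC and from 1.82 to 2.53 for mOCp over pOC, and 1 more probe set stayed between 1.7 and 2.3 on all arrays. All 5 measured probe sets therefore exceeded 2-fold in both comparisons, and the main one kept log2 ratios of 1.02 and 1.64 for mOCd and mOCp with the spike-ins. Of the 11 macrophage markers, 1 was lower for mOCd over pOC with 0 higher, and 5 were higher for mOCp over pOC with 0 lower.

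Mmp12 read 615.0 in mOCd and 545.2 in mOCp, against 284.0 in pOC. The log2 ratio was 1.11 for mOCd over pOC, which counts as higher, and 0.94 for mOCp over pOC, which does not. The 2 values differ by less than the probe-set disagreement, and the dentin value dropped to 0.99 after median scaling and to 0.69 with the spike-ins, both under 2-fold. With the median of probe sets above the floor on all arrays, a setting chosen after seeing the data, the ratios were 1.21 for mOCd and 1.06 for mOCp, both over 2-fold. The readings in mature cells lay close to the 503.0 of BMM, so pOC had the lowest Mmp12 value of the 4 arrays.

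Mmp14 and Mmp9 were brighter still in the mature cultures, by less than 2-fold. Mmp14 read 3921.2 in mOCd and 3684.3 in mOCp against 2007.7 in pOC, log2 ratios of 0.97 and 0.88. Mmp9 read 10789.8 in mOCd and 10970.8 in mOCp against 6526.8 in pOC, log2 ratios of 0.73 and 0.75. For mOCd over pOC, Mmp14 passed 2-fold with cyclic loess normalization and with the mean over its probe sets, at 1.04 in both, and at 1.06 with the median of probe sets above the floor. With the spike-ins the ratios stayed positive but were 0.54 and 0.42 for Mmp14 and 0.30 and 0.30 for Mmp9, in mOCd and mOCp. The Mmp9 value in mOCd was the highest of all probe sets on that array, and the highest value in mOCp was 11672.4, so its readings lay at the top of the scale. Whether they were compressed there was not tested.

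Over the whole course from BMM, Mmp9 was at least 850-fold higher in mOCd and at least 864-fold higher in mOCp, log2 bounds of 9.73 and 9.75. With other floors these bounds ran from 8.81 to 11.63 in mOCd and from 8.83 to 11.66 in mOCp. Mmp14 was 143-fold higher in mOCd and 134-fold higher in mOCp. Mmp13 read 19.4 in mOCd and 20.6 in mOCp, against 133.2 in BMM, 6.87-fold and 6.47-fold lower and above the floor in both. Mmp13 was thus dimmer on all 3 arrays with RANKL than in BMM, while Timp2 ended 2.77-fold above BMM in mOCd and 4.32-fold above it in mOCp. The 4 other Timp2 probe sets gave log2 ratios over BMM from 0.92 to 2.02 in mOCd and from 1.5 to 2.11 in mOCp.

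Between the protease gene Mmp14 and the inhibitor gene Timp2, the change on the main probe sets was unequal. The log2 ratio of Mmp14 exceeded that of Timp2 by 6.17 for pOC over BMM and was below it by 0.48 for mOCd over pOC and by 1.21 for mOCp over pOC (differences of −0.48 and −1.21). The dentin difference is smaller than the probe-set disagreement of a single ratio and the plastic one larger, though a difference of 2 ratios carries more error. For mOCd over pOC the other Mmp14 probe sets had 0.74 and 1.4, and the lowest Timp2 one 1.36, so the order is not settled. For mOCp over pOC they had 0.76 and 0.95, against 1.82 or more for Timp2. For mOCd over mOCp the Mmp14 ratio exceeded that of Timp2 by 0.73 on the main probe sets. The other Mmp14 probe sets had −0.02 and 0.45 there, and the highest Timp2 one 0.02, so this order is not settled either. Such differences are not altered by scaling each array with 1 factor.

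In these 2 comparisons, which share the pOC array, 5 of the 10 genes were eligible in each. For mOCd over pOC 2 of the 10 genes were higher and 0 lower, where 10.8% of 7231 eligible genes were higher and 12.3% lower. For mOCp over pOC 1 of 10 was higher and 0 lower, where 8.8% of 7195 eligible genes were higher and 11.4% lower. The median log2 ratio was 0.23 and 0.45 over the 10 genes, where 3 genes at the floor on both arrays entered as 0. Over all genes, with such genes also entered as 0, it was 0.0 in both. Over eligible genes it was −0.01 for mOCd and −0.03 for mOCp. The spike-ins changed the counts over all genes to 402 higher and 1773 lower for mOCd over pOC, from 779 and 886 in the authors' scaling. For mOCp over pOC they gave 271 higher and 1709 lower, in place of 633 and 820, and the median of probe sets above the floor gave 814 and 650. Maturation and 2 more days of culture cannot be told apart.

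**Figure D3:**
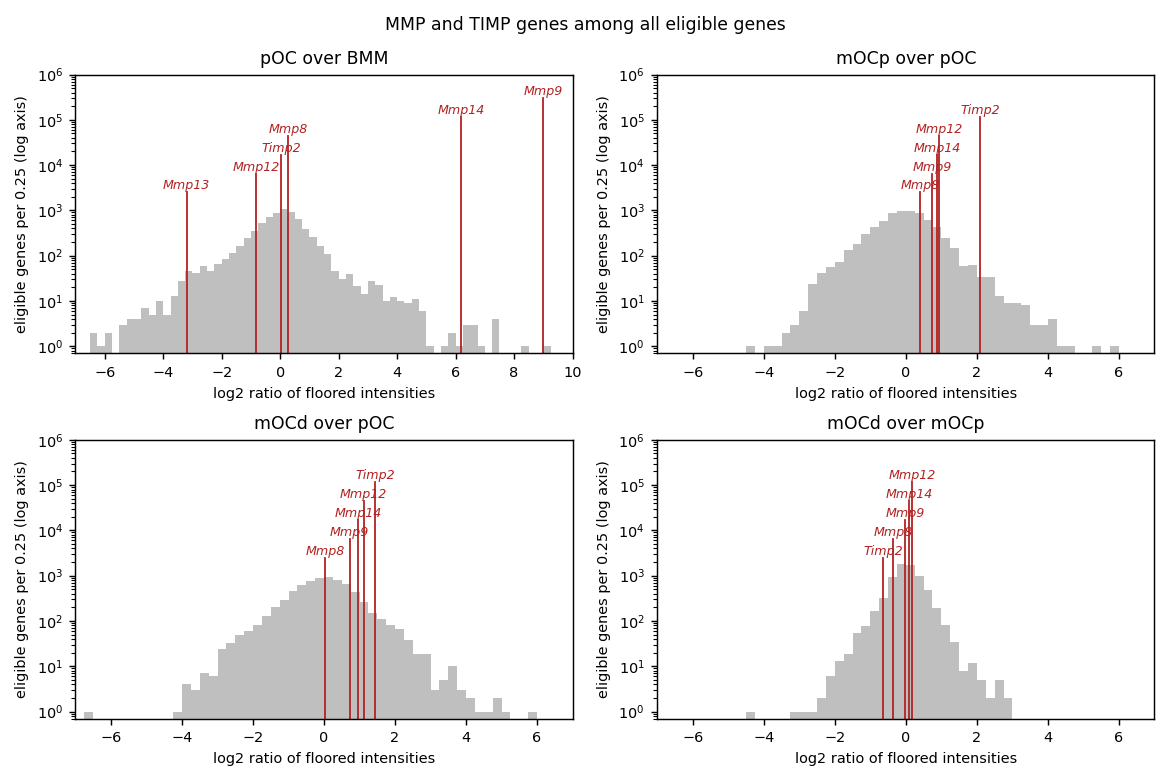
Histograms (log axis) of log2 ratios of all genes eligible in each comparison, with red lines at the MMP and TIMP genes among them; the heights of the lines carry no value. In pOC over BMM, Mmp9 and Mmp14 stand in the far right tail and Mmp13 on the left, while in mOCd over mOCp the 5 eligible genes lie between −0.64 and 0.17.

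The resorbing cultures on dentin were set against those on plastic after the same time in both cytokines. For mOCd over mOCp, 5 of the 10 genes were eligible. Of the 10, 0 were higher and 0 lower, where 2.15% of 6915 eligible genes were higher and 2.55% lower. Median scaling moved the split over all genes to 108 higher and 230 lower, against 149 and 176. Mmp9 had a log2 ratio of −0.02, which turned to 0.12 with cyclic loess and 0.06 with quantile normalization, and Mmp14 of 0.09, with the other Mmp14 probe sets at −0.02 and 0.45. On their main probe sets these 2 proteases differed between dentin and plastic by less than the probe-set disagreement, which does not show that they are alike.

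Timp2 read 1500.9 in mOCd and 2346.3 in mOCp, a log2 ratio of −0.64 on its main probe set. Its other probe sets gave −0.92, −0.2, −0.09 and 0.02, so 2 of 5 lay beyond the disagreement of 0.427 and 3 did not. The control transcript of the transferrin receptor had a 3′ to 5′ log2 signal ratio of 1.7 in mOCd and 0.84 in mOCp, while that of Gapdh was −0.34 and −0.29. Of 11 macrophage markers, 4 were lower in mOCd than in mOCp and 0 higher. The lower ones were Adgre1, C1qa, C1qb and C1qc, with log2 ratios of −1.28, −1.49, −1.95 and −2.15. The sum over all 11 was 16467.9 in mOCd and 19510.5 in mOCp. Csf1r and Cd68 made up most of it, at 7644.1 and 7367.1 in mOCd and 7511.7 and 8622.9 in mOCp. The parts of transcript ends and of macrophages in the Timp2 readings were not tested.

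Mmp8 and Mmp19 stayed under 2-fold in each of the 4 comparisons. Mmp8, the collagenase stored in neutrophil granules, read 109.6 in BMM, 131.4 in pOC, 134.8 in mOCd and 173.6 in mOCp. Its log2 ratios were 0.26 for pOC over BMM, 0.04 for mOCd over pOC, 0.4 for mOCp over pOC and −0.36 for mOCd over mOCp, of which those over pOC turned to −0.39 and −0.05 with the spike-ins and the dentin one to −0.09 after median scaling. In the authors' scaling the mOCp over pOC ratio alone exceeded the probe-set disagreement, at 0.4 against 0.397, and it was 0.48 with quantile and 0.5 with cyclic loess normalization. With the spike-ins pOC over BMM was 0.51, above its disagreement of 0.391. Mmp19, a secreted MMP of macrophages and other cells, read 21.5, 34.5, 27.4 and 39.5 on the same arrays and never reached the 75th percentile. Its second probe set read 17.0, 21.8, 23.6 and 29.7.

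Readings of Mmp2, Timp3 and Timp1 were at or near the floor. Mmp2, gelatinase A and the classical target of MMP14, read between 0.8 and 7.8 on its main probe set and between 1.1 and 2.8 on the second. All 8 readings were under the floor, so no ratio was formed and no level can be given. Timp3, which binds to the matrix itself, had 1 reading above the floor among its 4 probe sets, 15.4 in BMM. Timp1 read 36.2 in BMM, 13.9 in pOC, 14.7 in mOCd and 12.2 in mOCp, under the floor in all arrays but BMM.

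Mmp8, Mmp12 and Mmp13 are neighbours on chromosome 9, in a run of 10 MMP genes that RefSeq (GRCm38.p6) lists one after another among protein-coding genes. Of the run, 9 genes had a probe set, and these 3 were the ones that reached the 75th percentile on any array. Mmp10, a stromelysin, exceeded the floor in mOCp alone (23.7), and Mmp1b, Mmp3, Mmp1a, Mmp20 and Mmp7 were under it on all 4 arrays. In the authors' scaling the 3 bright neighbours each had a different course, with Mmp13 highest in BMM, Mmp12 lowest in pOC and Mmp8 highest in mOCp. There the Mmp8 log2 ratio of mOCp over BMM was 0.66, under 2-fold and above that comparison's probe-set disagreement of 0.459. With the spike-ins the Mmp8 ratio for mOCp over pOC was −0.05, so mOCp was then not the highest. None of the 3 genes has a second probe set.

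The sequences before the transcription starts are shown for the genes whose readings changed and that RefSeq's promoter table (GRCm38.p6) lists, so that the 2 chromosome 9 neighbours can be set beside Mmp14 and Timp2. The table held 7 of the 10 genes, and Mmp2, Mmp9 and Mmp19 had no entry. Each run is the 250 bases before a start, 5′ to 3′ on the gene's strand, and capitals mark matches, on either strand, to TGANTCA (the core bound by AP-1, the Fos and Jun family), GGAAA (the core bound by NFAT factors) or CACGTG (an E-box).
Mmp13 (chr9:7272264-7272513, plus strand): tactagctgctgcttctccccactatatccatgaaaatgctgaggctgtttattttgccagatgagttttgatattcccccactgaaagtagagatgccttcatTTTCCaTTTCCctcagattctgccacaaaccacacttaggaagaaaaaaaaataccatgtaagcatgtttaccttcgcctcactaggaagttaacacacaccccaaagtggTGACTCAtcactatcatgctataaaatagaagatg
Mmp12 (chr9:7347124-7347373, plus strand, the downstream of 2 listed starts): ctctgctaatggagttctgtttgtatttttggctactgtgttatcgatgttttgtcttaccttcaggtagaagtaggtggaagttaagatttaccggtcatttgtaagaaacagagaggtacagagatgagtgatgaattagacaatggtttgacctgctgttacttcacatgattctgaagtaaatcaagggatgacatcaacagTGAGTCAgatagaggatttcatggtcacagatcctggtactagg
Mmp14 (chr14:54431348-54431597, plus strand): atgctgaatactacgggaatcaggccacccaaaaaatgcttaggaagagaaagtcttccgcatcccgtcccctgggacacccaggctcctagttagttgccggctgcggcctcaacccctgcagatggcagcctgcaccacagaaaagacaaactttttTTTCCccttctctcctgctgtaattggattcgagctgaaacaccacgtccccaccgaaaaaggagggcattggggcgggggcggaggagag
Timp2 (chr11:118355412-118355661, minus strand): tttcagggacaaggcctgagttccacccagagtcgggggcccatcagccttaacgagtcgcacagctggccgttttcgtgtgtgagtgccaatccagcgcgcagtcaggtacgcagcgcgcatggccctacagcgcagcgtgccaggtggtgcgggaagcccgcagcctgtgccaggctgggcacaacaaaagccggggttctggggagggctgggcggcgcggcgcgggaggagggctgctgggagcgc

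In Mmp13 the AP-1 match began 35 bases before the start, and 2 GGAAA matches on the other strand lay at 146 and 140 bases. The Mmp12 run held 1 AP-1 match at 44 bases, and the upstream Mmp12 start had 0 of the 3 motifs. Mmp14 had 1 GGAAA match on the other strand at 91 bases, and Timp2 had none of the 3. Over all 32851 promoters in the table, 6.75% held TGANTCA, 55.6% GGAAA and 6.02% CACGTG in the same 250 bases. Matches describe letters and do not show that a factor binds, and their absence here says nothing on the factor. The arrays do not tell which Mmp12 start was used.

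Among the listed genes that act beside the MMPs, Ctsk had the largest ratio for pOC over BMM. Of 17 other family genes listed (the remaining MMPs and Timp4), 12 had a probe set, 8 were under the floor on all arrays and 0 reached the 75th percentile. The list of 20 genes for activation, binding and other inhibition had 17 with a probe set, of which 8 were eligible for pOC over BMM. In that comparison 2 of the 17 passed the criterion upward and 3 downward, where 11.1% and 13.2% of all eligible genes did. Plau, the urokinase that makes plasmin, a protease able to activate MMP precursors, read 20.5 in pOC and 160.9 in BMM, 7.85-fold lower. Its receptor Plaur read 268.7 in pOC and 586.2 in BMM (log2 ratio −1.13), and Lrp1, an endocytic receptor that clears MMPs, 433.1 in pOC and 1085.7 in BMM (−1.33). Lcn2, a lipocalin that binds MMP9 in neutrophils, was at least 9.56-fold higher, at 121.4 in pOC and 8.4 in BMM. Itgav, the alpha chain of the vitronectin receptor, read 3992.6 in pOC and 1592.8 in BMM (log2 ratio 1.33).

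In the later comparisons of that list, Lcn2 and Serpinb2, an inhibitor of plasminogen activators, were higher in mOCp than in pOC, with log2 ratios of 1.6 and 1.23. For mOCd over pOC 0 of 17 were higher and 0 lower, with 7 eligible. Plaur read 181.9 in mOCd and 401.4 in mOCp, and Lcn2 read 102.7 in mOCd and 367.9 in mOCp, so both were lower on dentin. They were the only 2 of 17 that met the criterion there, with 8 eligible. Bsg, the surface glycoprotein that induces MMPs in neighbouring cells, read 916.3 in BMM, 1605.2 in pOC, 2876.7 in mOCd and 3030.7 in mOCp. Each step was under 2-fold, while both mature readings lay more than 2-fold above BMM.

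Of 16 ADAM, ADAMTS and astacin proteases, relatives of the MMPs, 15 had a probe set and 5 were eligible. In pOC over BMM 0 were higher and 2 lower, namely Adam8 (log2 ratio −1.19) and Adam15 (−1.08), both membrane proteins of the ADAM family. Adam8 was also lower in mOCd than in pOC (692.3 in mOCd and 1797.5 in pOC), and the 2 other comparisons had 0 in either direction. Of the 9 genes of collagen breakdown outside the MMPs, Ctsk, encoding cathepsin K, was higher in pOC than in BMM with a log2 ratio of 8.48, and 0 were lower. Ctss, another cathepsin, read 1599.0 in mOCd, against 3234.5 in pOC and 3233.1 in mOCp, just past 2-fold lower in both comparisons. For mOCp over pOC 0 of these 9 genes met the criterion. Of 12 listed matrix proteins that MMPs can cut, collagens and fibronectin among them, 11 had a probe set, and 0 of these reached the 75th percentile on any array. The remaining one, Spp1, was not analysed, so its level is not known here.

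**Figure D4:**
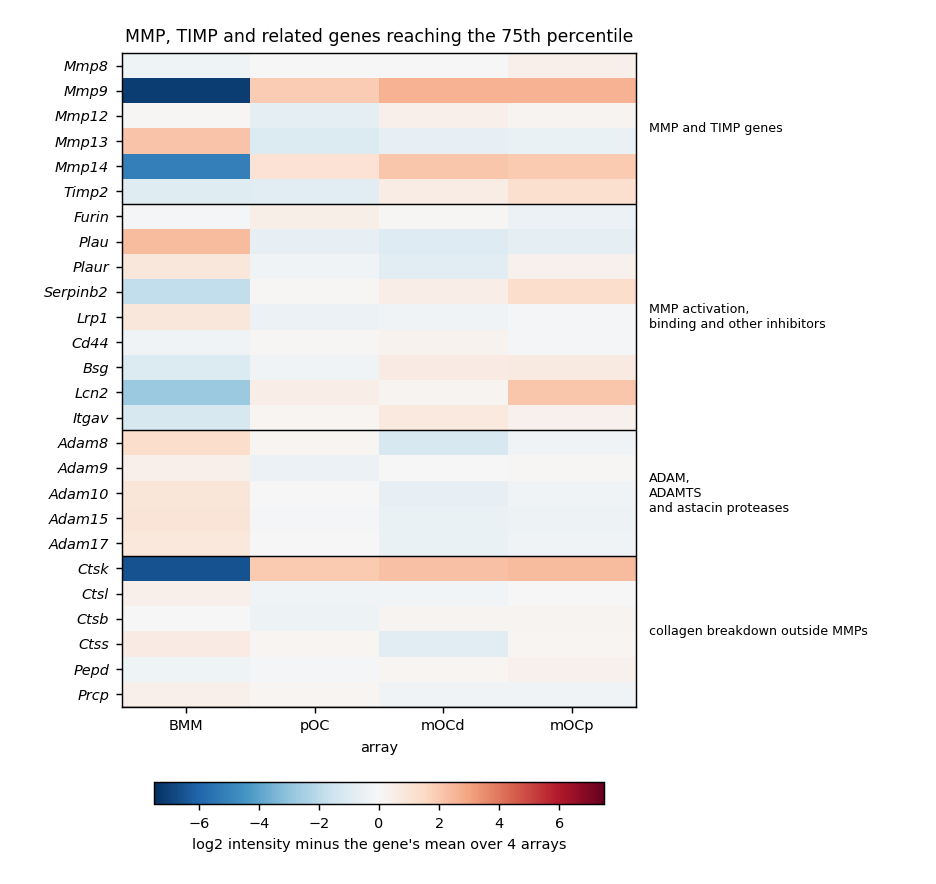
Log2 intensity of each gene minus its mean over the 4 arrays, for MMP and TIMP genes and related genes that reached the 75th percentile on at least 1 array (red above, blue below the gene's mean). Mmp9, Mmp14 and Ctsk are deepest blue in BMM, whereas Plau and Mmp13 are red there.

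The genes with the courses most like each member were named by the smallest root mean square difference of centred log2 values over the 4 arrays, searched among 7658 genes. For Mmp9 they were Ctsk (0.374), Ocstamp, a membrane protein needed for osteoclast fusion (0.707), and Slc9b2 (0.722), a cation/proton exchanger. For Mmp14 they were Car2, the carbonic anhydrase of acid secretion (0.183), the fusion protein gene Dcstamp (0.252) and Cd200 (0.268), a surface glycoprotein. The BMM values of Ocstamp, Slc9b2, Car2 and Cd200 were under the floor, as was that of Mmp9. Timp2 was nearest to Il1b (0.067), H1f2 (0.112) and Crim1 (0.115), and Mmp12 to Tgfb1 (0.041), Bcl2l11 (0.046) and Dip2a (0.048). Mmp13 was nearest to Sgk1 (0.077), Fabp4 (0.081) and Hip1 (0.107), and Mmp8 to Tln1 (0.018), Tiprl (0.022) and Bag2 (0.029). With 4 arrays many genes share such a course.

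Marker genes of further marrow cell types were read as well, since neutrophils make Mmp8 and Mmp9 and stromal cells make Mmp2, Mmp13 and Timp3. Of 13 neutrophil markers, 12 had a probe set and 4 reached the 75th percentile on any array. The sum over the 12 was 416.9 in BMM, 872.5 in pOC, 987.8 in mOCd and 1909.5 in mOCp. For pOC over BMM 3 of the 12 were higher and 0 lower, for mOCp over pOC 3 and 0, for mOCd over pOC 1 and 0, and for mOCd over mOCp 0 and 2. Eligible were 3 of the 12 for pOC over BMM and 4 in each of the other comparisons. S100a8, a calcium-binding protein abundant in neutrophils, was the brightest of them, at 146.4 in BMM, 380.1 in pOC, 506.8 in mOCd and 1112.6 in mOCp. S100a8 and Lcn2 (8.4 in BMM and 367.9 in mOCp) made up most of the sum in mOCp. Csf3r, Padi4 and Prtn3 went the other way, above the floor in BMM (34.4, 39.8 and 17.3) and under it on the other arrays. Elane, a granule protease, was at most 41.0, and Mpo, the granule peroxidase, at most 29.4. Of 16 stromal and osteoblast markers, 14 had a probe set, 7 were under the floor on all arrays and 1, Dcn, reached the 75th percentile, with summed intensities of 92.5 in BMM, 346.9 in pOC, 287.1 in mOCd and 155.0 in mOCp. Dcn, a matrix proteoglycan, made up much of the sums in pOC (196.1) and mOCd (127.3). It made up less of them in mOCp (55.0) and in BMM (8.8), where it was under the floor. Of the type I collagen chains, Col1a1 was under the floor on all 4 arrays, and Col1a2 was above it in BMM (18.8) and pOC (31.5). The part of neutrophils in the Mmp9 and Mmp8 readings, and of stromal cells in the Mmp13 reading, was not tested. Endothelial markers (6 genes) summed to between 34.3 and 69.8, and dendritic markers (6 genes) to between 75.1 and 177.3.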

How the data were processed

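Per the labels' protocols, total RNA from each of 4 cultures was labelled with biotin and hybridised to 1 array each. The deposited intensity values are linear, and the submitters' processing notes name MAS5, with no version. With 2% cut at both ends, each array's mean was 100.0, so differences in total mRNA are not kept. MAS5 subtracts a mismatch background, so dim probe sets are imprecise. Detection calls and scanner files were not used here. RefSeq tables on GRCm38.p6 gave gene order and promoters, and the authors' build is not given in the sources used here.

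From these values the following was computed with Python 3.11.15, pandas 2.3.3 and limma 3.58.1. Of 45101 probe sets, 34945 carried 1 symbol in a platform annotation dated 2016, and 64 were controls. The probe set with the highest mean floored log2 intensity stood for a gene. A gene was eligible where its value reached the 75th percentile on either array of a comparison. Where the dimmer value was at the floor, the ratio is a bound. Members, gene lists and alternatives were chosen with earlier results of these data known. All 10 members, list genes that met the criterion and the 3 nearest genes by course were named, with a few more list genes chosen after their values were seen. The call rule was checked on data simulated from the BMM array for pOC over BMM, over 18193 genes: it called 200 of 200 bright genes raised 4-fold as higher, 200 of 200 set to 0.25 of their value as lower, and 0 of 200 unchanged ones. The simulated noise was smaller than the probe-set disagreement, and the genes drawn lay well above the 75th percentile. The check therefore gives no rate of false calls for the real arrays, for dimmer genes or for changes near 2-fold. With 1 array a group no p-value exists, and the number of arrays limits precision.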

Additional observations from a re-analysis of the deposited data

Results flagged for a closer look

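Mmp19 stood out because the 2 mature cultures moved in opposite directions from the same pOC array, with a log2 ratio of −0.33 for mOCd over pOC and 0.2 for mOCp over pOC. The difference was not tested, its readings never reached the 75th percentile, and its second probe set gave 0.11 for mOCd and 0.45 for mOCp. With the spike-ins the ratio for mOCp over pOC was −0.26, so the opposite directions depend on the scaling.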

How the results depend on the processing

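The counts of the 10 genes and those of their ratios that had an array above the floor were recomputed under 10 alternatives: a floor at another percentile (lower or higher), quantile, cyclic loess, median and spike-in scaling, the mean over probe sets, no suffixed probe sets, a lower brightness limit and a 3-fold criterion. Another, chosen after seeing the data, scaled to the median of probe sets above the floor on all arrays. The ratios of mature cells over BMM were added to these afterwards. The 2 genes higher and 1 lower in pOC over BMM became 2 lower after median scaling (Mmp12 added) and 2 lower with the brightness limit at the 50th percentile (Timp1 added). The 2 higher in mOCd over pOC became 1 after median scaling, 1 with the spike-ins (Timp2 in both) and 0 at 3-fold. Cyclic loess, the mean over probe sets and the later median scaling gave 3, with Mmp14 added. That later scaling also gave 2 higher in mOCp over pOC in place of 1, with Mmp12 added. Quantile normalization, leaving out suffixed probe sets and the floors at the 25th and 60th percentile changed none of the counts of the 10 genes. Of 522 recomputed ratios, 496 moved by less than the probe-set disagreement and 26 by more, and 0 of the 154 for called genes changed sign. These totals include alternatives that could not change a ratio. The 3-fold criterion and the lower brightness limit act on calls alone, and no main probe set of the 10 genes carried a suffix. A further 6 had both arrays at the floor and gave no value. The bound for Mmp9 in pOC over BMM ranged with the floor, from 8.08 to 10.91 on the log2 scale, and that for Mmp13 from −4.31 to −2.47. Over all genes, the 50th-percentile limit gave 319 higher and 331 lower for mOCd over mOCp, against 149 and 176, and the 3-fold criterion 32 and 35. At 3-fold the counts were also 339 and 496 (against 809 and 956) for pOC over BMM, 218 and 297 (633 and 820) for mOCp over pOC and 328 and 350 (779 and 886) for mOCd over pOC. The mean over probe sets gave 452 and 520 for mOCp over pOC. No paired analysis was possible because each group was 1 array. The causes of these shifts were not tested.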
